A study of Rattus norvegicus with 3 samples.

Results

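The SLC25 genes encode the mitochondrial carrier family, and all entries whose symbol begins with SLC25A and a number were examined here, 38 of the 12771 entries in the deposited expression table. All 38 symbols matched a gene of the GRCr8 rat reference, and SLC25A2, SLC25A13, SLC25A21, SLC25A26, SLC25A31, SLC25A40, SLC25A41, SLC25A47, SLC25A48 and SLC25A53 were not analysed here. RNA was measured in the supernatant left after rat spinal cord was digested with cold active proteases and the cells were pelleted, a preparation made to enrich for axonal RNA. The No-SCI group were young adult female Sprague Dawley rats with a thoracic laminectomy and no contusion, and the SCI group received the same laminectomy followed by a contusion from an impactor. Tissue just rostral to the injury site was taken a day later, so both groups share the laminectomy, the digestion and the centrifugation. The sample labels give 2 No-SCI libraries and 1 SCI library, while the study's methods describe an equal number of animals in each condition. The authors' FPKM are fragments scaled to transcript length and to library size, with normalization to the upper quartile. The table holds 1 such value per gene and group, with no value for a single library. No spread between animals, standard error or test could therefore be computed, the table does not give the reads behind each value, and the values below are descriptions of these libraries.

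Carriers of this family sit in the inner membrane of the mitochondrion, with a few members in the outer membrane or in peroxisomes, and move metabolites, nucleotides, cofactors and ions that cannot cross it alone. Most work as exchangers. ADP enters in exchange for ATP, phosphate enters for ATP synthesis, and aspartate and glutamate are exchanged in the shuttle that carries reducing equivalents from the cytosol. Their proteins are made in the cytosol and inserted by a dedicated import pathway, and in long axons and in glia the carriers set which fuels and building blocks reach the matrix.

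The SLC25 genes as a family had a median ratio close to that of all entries, with a smaller share of higher genes. A few of them stood far below their No-SCI level, but the share lower by 2-fold or more was not above that of all entries. The summed level of the 38 genes was 3120 FPKM in No-SCI and 2867 FPKM in the injured group, a change of −8.12%. The median log2 ratio of SCI over No-SCI over the 38 genes was −0.11, beside −0.12 over all 12771 entries. Of the 38 genes, 12 (31.6%) had a log2 ratio above 0, against 43.7% of all entries. A change of at least 1.5-fold was taken as the mark of a called difference, since with 1 value per group no test was possible. By this mark 10 SLC25 genes (26.3%) were lower and 3 (7.89%) were higher after SCI, and 26.3% of all entries were lower and 16.9% higher. The share of lower genes thus equalled the background. At 2-fold or more, 4 genes (10.5%) were lower and 1 (2.63%) was higher, beside 12.1% and 7.96% of all entries. At 1.3-fold, the minimum that the study's methods name, 12 genes (31.6%) were lower and 6 (15.8%) higher, beside 35.7% and 24.6%. When the median of all entries was centred at 0, which adds 0.12 to each log2 ratio, 8 SLC25 genes were lower and 6 higher by 1.5-fold. The genes that carry 7 digits in either group's value are a limit here. Such values can be sums over several entries of a gene, they occur in 20 of the 38 genes, and 12 of the 13 genes past 1.5-fold were among them. Over all entries 48.8% of those with 7 digits and 35.4% of the others were past 1.5-fold, and the part of this feature in the results was not tested.

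**Figure D1:**
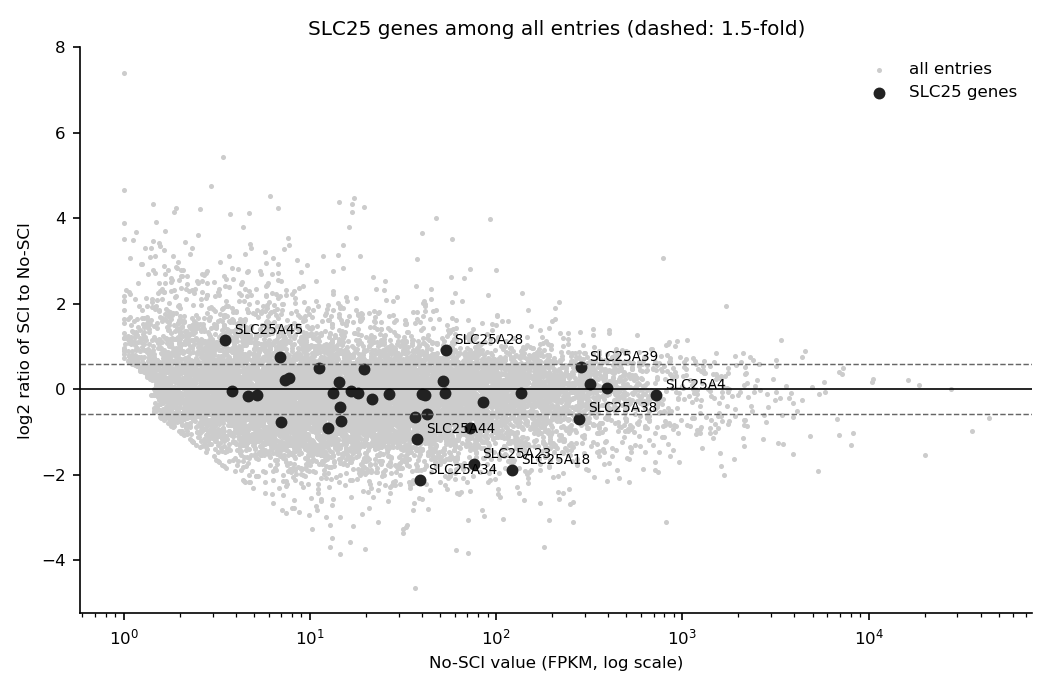
No-SCI level (FPKM, log axis) against the log2 ratio of SCI over No-SCI for all 12771 entries (grey) and the 38 SLC25 genes (black), with dashed lines at 1.5-fold. Most SLC25 genes lie between the dashed lines, and SLC25A34, SLC25A18 and SLC25A23 lie farthest below them.

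The stretch before the start of each of the 5 SLC25 genes past 2-fold is shown because these genes had the widest differences of the family. The sequences are the 250 bases before the RefSeq start in the GRCr8 build, printed 5′ to 3′ on the gene's strand, and they are not from rn6, the build of the values. Capitals mark matches, on either strand, to 8 motifs of general promoter factors. They were GGGCGG, the box that SP1 binds, and CCAAT, the box named after its letters. For the factor NRF1, which drives many mitochondrial genes, the core CGCATGCG was searched. For YY1 the core was AAGATGGCG, and for factors of the ETS family it was CCGGAAG. The TATA box was written as TATAAA. The response element for cyclic AMP was TGACGTCA. The half-site of nuclear receptors was AAGGTCA, and none of the motifs contains another. SLC25A34 lies on the minus strand at chr5:159219893-159220142, SLC25A18 on the plus strand at chr4:155672919-155673168, SLC25A23 on the minus strand at chr9:1985366-1985615, SLC25A44 on the minus strand at chr2:176180839-176181088 and SLC25A45 on the plus strand at chr1:212596601-212596850.
SLC25A34: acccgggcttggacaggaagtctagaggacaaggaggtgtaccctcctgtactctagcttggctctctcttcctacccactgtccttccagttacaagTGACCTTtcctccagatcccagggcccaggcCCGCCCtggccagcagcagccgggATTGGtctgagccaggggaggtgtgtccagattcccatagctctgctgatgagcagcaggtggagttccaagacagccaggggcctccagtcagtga
SLC25A18: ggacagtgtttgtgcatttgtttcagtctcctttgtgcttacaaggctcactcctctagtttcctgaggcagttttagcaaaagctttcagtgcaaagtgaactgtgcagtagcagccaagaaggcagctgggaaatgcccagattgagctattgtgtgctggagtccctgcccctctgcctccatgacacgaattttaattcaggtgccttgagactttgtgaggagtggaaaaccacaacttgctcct
SLC25A23: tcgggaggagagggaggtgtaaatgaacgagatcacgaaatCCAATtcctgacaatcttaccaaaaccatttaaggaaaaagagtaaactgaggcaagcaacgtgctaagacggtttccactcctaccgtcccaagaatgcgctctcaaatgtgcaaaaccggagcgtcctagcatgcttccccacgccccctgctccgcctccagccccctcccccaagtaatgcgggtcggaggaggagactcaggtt
SLC25A44: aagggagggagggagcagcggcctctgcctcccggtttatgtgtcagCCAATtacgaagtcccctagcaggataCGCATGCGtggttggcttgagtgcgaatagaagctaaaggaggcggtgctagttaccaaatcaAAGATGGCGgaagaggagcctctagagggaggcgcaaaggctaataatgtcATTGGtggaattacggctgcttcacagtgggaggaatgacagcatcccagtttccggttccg
SLC25A45: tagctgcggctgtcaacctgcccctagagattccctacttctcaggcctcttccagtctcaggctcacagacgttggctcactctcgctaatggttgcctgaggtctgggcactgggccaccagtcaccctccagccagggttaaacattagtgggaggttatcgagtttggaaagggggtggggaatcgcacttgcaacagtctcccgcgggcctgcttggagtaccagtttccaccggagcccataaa
The window of SLC25A45 lies within the annotated span of its gene, and those of SLC25A18 and SLC25A44 overlap theirs in part, so other transcripts of these genes start elsewhere. The window of SLC25A18 held no match and 1 CpG, and that of SLC25A45 held no match and 8 CpG. SLC25A44 held 4 matches, with the NRF1 core 176 bases and the YY1 core 113 bases before the start, and 12 CpG. SLC25A34 held 3 matches and 3 CpG, and SLC25A23 held 1 match and 13 CpG. Over the 31 SLC25 genes with a window, the median was 15 CpG and 58.8% G and C, against 6 CpG and 52% over 27457 genes. Those 27457 are all reference genes with a window, whether or not they have an expression value here.

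Across all windows of this length, from genes with and without an expression value, the motifs differ widely in how common they are. GGGCGG was found in 20 of 31 SLC25 windows (64.5%) and in 32.4% of all windows, and CCAAT in 16 (51.6%) and 34.3%. CCGGAAG was found in 5 (16.1%) and 7.74%, TGACGTCA in 2 (6.45%) and 1.70%, and TATAAA in 1 (3.23%) and 13.1%. CGCATGCG, AAGATGGCG and AAGGTCA were each found in 1 SLC25 window (3.23%), and in 1.63%, 0.736% and 3.77% of all windows. A match is a run of letters and not a shown binding site.

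The level of the family rested on few genes. SLC25A4, SLC25A3, SLC25A5, SLC25A39 and SLC25A38 together made up 64.2% of the summed FPKM in No-SCI and 69.2% in the injured group. In each group 7 of the 38 genes were above 100 FPKM, whereas 8 in No-SCI and 10 after SCI were below 10 FPKM. The median level was 31.7 FPKM in No-SCI, above the 17.2 FPKM of all entries, and 20.5 FPKM after SCI. Of the 10 most abundant SLC25 genes in No-SCI, 7 were also among the 10 most abundant after SCI. SLC25A4 was first in both groups, while SLC25A39 moved from place 4 to place 2 and SLC25A18 from place 7 to place 14. Without values per animal, neighbours in these orders cannot be separated. For 11 of the 38 genes the reference also lists pseudogenes or like-named copies, 10 for SLC25A5 and 8 for SLC25A39, and reads shared with such copies make their levels uncertain.

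**Figure D2:**
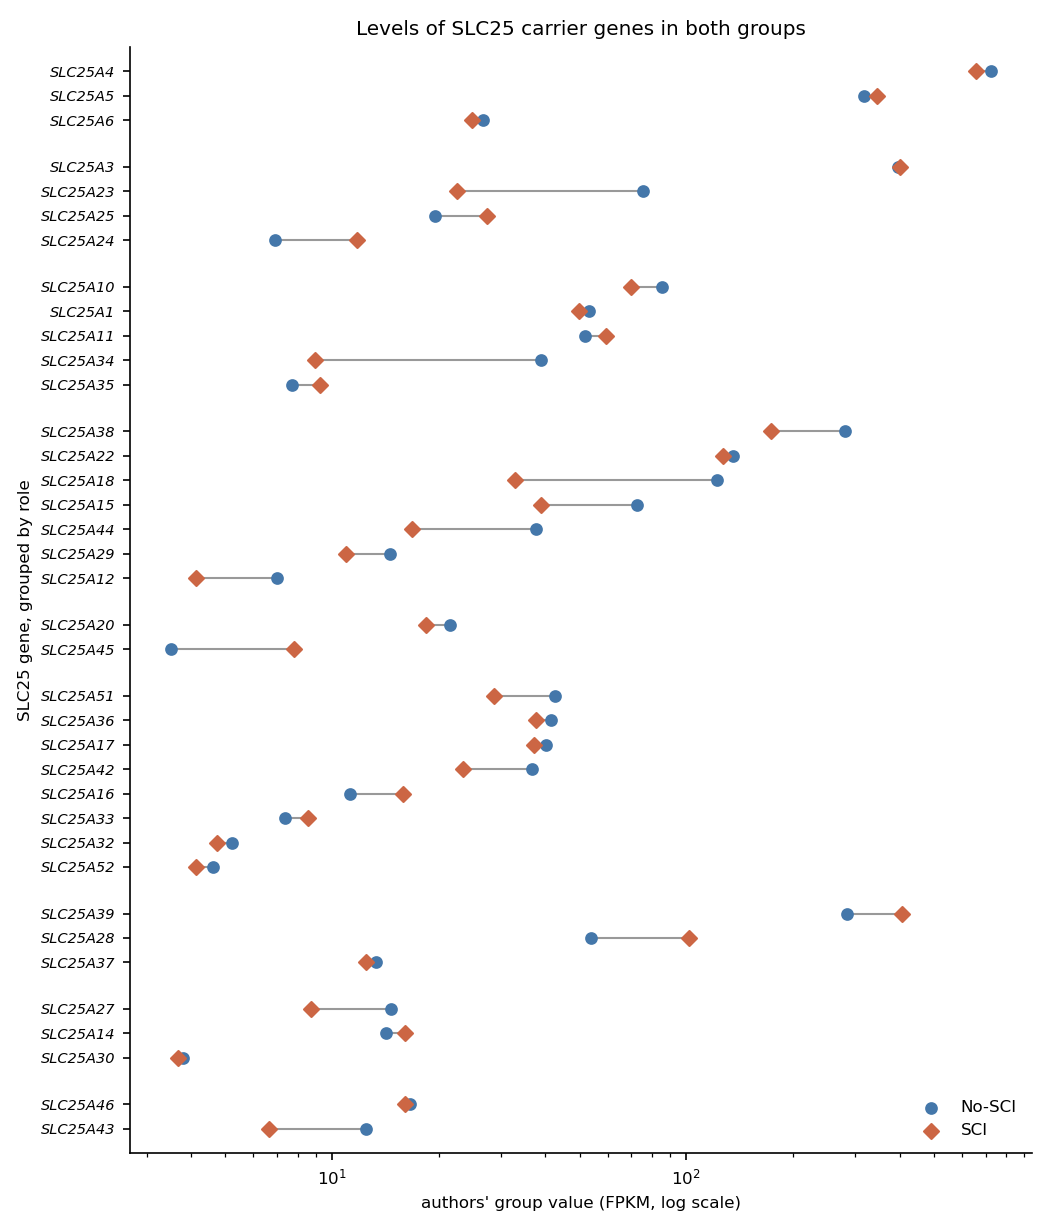
The authors' group value of 37 SLC25 genes (FPKM, log axis) in No-SCI (blue circles) and after SCI (red diamonds), arranged by role, with 1 value per group and no error bars because no replicate values were analysed here. SLC25A4 has the highest level in both groups, and the long lines of SLC25A23, SLC25A34 and SLC25A18 run to the left.

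The carriers that serve ATP synthesis differed little between the groups. SLC25A4, the adenine nucleotide carrier that predominates in muscle and heart and is abundant in brain, had 725 FPKM in No-SCI and 656 after SCI (log2 ratio −0.14). SLC25A5, the adenine nucleotide carrier of most other cells, had 318 and 346 FPKM (log2 ratio 0.12). SLC25A3, which imports phosphate, was listed at 396 FPKM in No-SCI and 402 after SCI (log2 ratio 0.02). All of these lay within 1.5-fold. SLC25A6, a further adenine nucleotide carrier, was at 26.6 and 24.8 FPKM (log2 ratio −0.10), a sign that turns after median centring. The ratio of SLC25A4 to SLC25A5 was 2.28 in No-SCI and 1.90 after SCI. Of 15 skeletal muscle markers 13 had values, but MYH1 and MYH2 carry the same pair of values and were taken as 1 measurement. The 12 distinct measurements summed to 495 and 143 FPKM, and 11 of them were lower by at least 1.5-fold, beside 26.3% of all entries. Among the 13 genes, 8 of the lower ones have a value of 7 digits. The log2 ratio of SLC25A4 was −0.14, and the part of muscle RNA in its values was not tested.

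A much wider shift was seen among the carriers that exchange ATP bound to magnesium for phosphate and so adjust the adenine nucleotide content of the matrix. SLC25A23 had 75.6 FPKM in No-SCI and 22.5 after SCI, 3.36-fold lower (log2 ratio −1.75). SLC25A24 went the other way, from 6.91 to 11.7 FPKM, 1.70-fold higher (log2 ratio 0.77). SLC25A25 was at 19.5 and 27.3 FPKM (log2 ratio 0.48), within 1.5-fold as deposited and past it after median centring or scaling to the same upper quartile. In No-SCI SLC25A23 was therefore 10.9 times as abundant as SLC25A24, and after SCI 1.92 times. Its ratio to SLC25A25 was 3.87 in No-SCI and 0.824 after SCI, so SLC25A25 was the more abundant of the pair after injury. SLC25A23 has 7 digits in its SCI value, SLC25A24 in its SCI value and SLC25A25 in both, so a ratio of levels between these genes may shift with the number of entries added up.

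All 7 amino acid carriers with a value had a log2 ratio below 0, under each scaling tried except that SLC25A22 turned positive after median centring and upper quartile scaling. Of the 7 genes, 5 were lower by at least 1.5-fold, beside 26.3% of all entries, and the median log2 ratio was −0.76, beside −0.12. Of these 5, 4 have a value of 7 digits (SLC25A18, SLC25A44, SLC25A15 and SLC25A38). The summed level of the 7 genes was 670 FPKM in No-SCI and 405 after SCI. SLC25A18, the glutamate carrier that in the nervous system is typical of astrocytes, had 122 FPKM in No-SCI and 33.0 after SCI, 3.71-fold lower (log2 ratio −1.89), and its printed window is the one with no motif match and 1 CpG. The other glutamate carrier, SLC25A22, was listed at 136 and 127 FPKM (log2 ratio −0.10). The ratio of SLC25A18 to SLC25A22 was 0.901 in No-SCI and 0.259 after SCI. SLC25A44, which imports branched-chain amino acids, had 37.8 and 16.9 FPKM, 2.24-fold lower (log2 ratio −1.16). SLC25A15, the ornithine carrier of the urea cycle, had 72.7 and 38.9 FPKM (log2 ratio −0.90). SLC25A12, the aspartate and glutamate exchanger of neurons and muscle, was low in both groups, at 7.02 and 4.15 FPKM (log2 ratio −0.76). The glycine carrier SLC25A38, which supplies haem synthesis, was the most abundant of the 7, at 280 and 174 FPKM (log2 ratio −0.69). It was 1.61-fold lower as deposited and lay inside 1.5-fold after median centring and after upper quartile scaling. SLC25A29, a carrier of basic amino acids, was at 14.6 and 10.9 FPKM (log2 ratio −0.41), within 1.5-fold.

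Markers of several cell types were lower beside SLC25A18, SLC25A23, SLC25A34 and SLC25A44. The astrocyte list had values for 9 of 14 genes, 7 of them below their No-SCI value and 6 past 1.5-fold, with sums of 25608 FPKM in No-SCI and 21379 after SCI and a median log2 ratio of −1.01. GFAP, AQP4, SLC1A3, S100B and ALDOC of that list had no value here. All 13 oligodendrocyte markers with a value (of 14, MBP without one) were below their No-SCI value, 12 of them past 1.5-fold, with sums of 88490 and 48314 FPKM and a median log2 ratio of −1.53. Of the 12 neuronal markers with a value, 9 were below their No-SCI value and 6 past 1.5-fold. These 12 summed to 1998 and 1833 FPKM, with a median log2 ratio of −0.63. GAP43, by far the most abundant of them, was among the 3 above their No-SCI value, at 1275 and 1406 FPKM. SNAP25 and NEFM of the neuronal list had no value here. Over all entries 26.3% were lower by 1.5-fold, and the median log2 ratio was −0.12. Of the markers lower by 1.5-fold, 3 astrocyte, 6 oligodendrocyte and 3 neuronal ones have a value of 7 digits. The part of these marker shifts in the carrier values was not tested. In a bulk supernatant, less RNA from a cell type and less RNA of a gene within that type cannot be told apart.

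**Figure D3:**
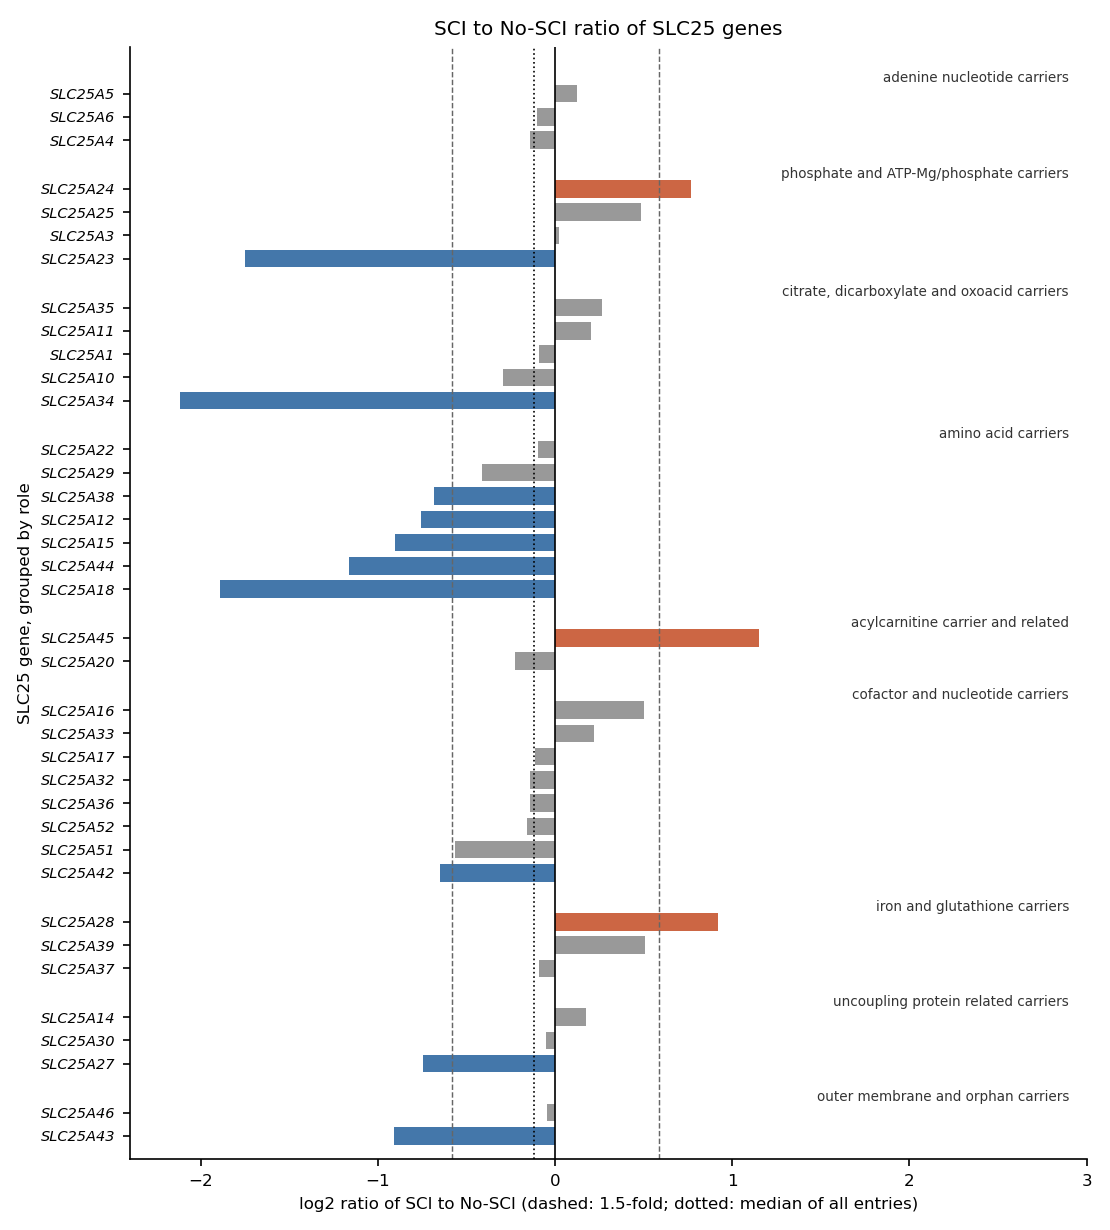
Log2 ratio of SCI over No-SCI for 37 SLC25 genes by role; bars past 1.5-fold (dashed lines) are red where higher and blue where lower after SCI, grey bars lie between, and the dotted line is the median of all entries. All 7 amino acid carriers point to the left, and the 3 genes past 1.5-fold upward are SLC25A45, SLC25A28 and SLC25A24.

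Among the carriers of citrate, dicarboxylates and related acids, SLC25A34 was set apart from the rest. It is a member of the family whose substrate is not settled, and it went from 38.8 FPKM in No-SCI to 8.96 FPKM after SCI, 4.34-fold lower (log2 ratio −2.12), the lowest ratio of the 38 genes. SLC25A35, the carrier most like it, was at 7.70 and 9.24 FPKM (log2 ratio 0.26). Their ratio was 5.04 in No-SCI and 0.970 after SCI, and the SCI value of SLC25A34 has 7 digits. The carriers with known roles in the citrate cycle were all within 1.5-fold. SLC25A1, which exports citrate for lipid synthesis, had 53.1 and 49.9 FPKM (log2 ratio −0.09, above 0 after median centring and upper quartile scaling). SLC25A10, the dicarboxylate carrier, had 85.4 and 69.7 FPKM (log2 ratio −0.29). SLC25A11, which exchanges malate for oxoglutarate in the malate-aspartate shuttle, had 51.7 and 59.4 FPKM (log2 ratio 0.20).

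Of the 3 carriers of iron and glutathione with values, 1 was higher by 1.5-fold and none was lower (16.9% and 26.3% of all entries). Their median log2 ratio was 0.51. SLC25A28 (mitoferrin 2), the iron importer of most tissues, had 53.8 FPKM in No-SCI and 102 after SCI, 1.89-fold higher (log2 ratio 0.92). Its values have 7 digits in both groups. SLC25A39, which imports glutathione, had 285 and 405 FPKM (log2 ratio 0.51), the widest gain of the family in FPKM, and its No-SCI value has 7 digits. It passed 1.5-fold after median centring and upper quartile scaling but not as deposited. SLC25A37 (mitoferrin 1), the iron importer of red cell precursors, was at 13.3 and 12.5 FPKM (log2 ratio −0.09, above 0 after the same scalings). The ratio of SLC25A28 to SLC25A37 was 4.05 in No-SCI and 8.17 after SCI. The 5 erythroid markers with values, of 13 listed, summed to 2904 and 2916 FPKM, and ALAS2 and SLC4A1 had no value here. Markers of meningeal fibroblasts were higher by 1.5-fold in 11 of 11 with values, beside 16.9% of all entries. They summed to 70.7 and 904 FPKM, and 6 of them have a value of 7 digits. Of 14 microglia and macrophage markers 4 were higher and 4 lower by 1.5-fold, beside 16.9% and 26.3% of all entries. Their sums were 1274 and 1456 FPKM, and the 8 endothelial markers with values summed to 39.3 and 39.2 FPKM. The part of these cell types in the higher values of SLC25A28 and SLC25A39 was not tested.

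SLC25A45 had the highest ratio of the family at a low level. It is grouped with the acylcarnitine carrier by sequence, and it went from 3.51 FPKM in No-SCI to 7.80 FPKM after SCI, 2.22-fold higher (log2 ratio 1.15). Its No-SCI value has 7 digits. No value in the table lies below 1, and if 1 was added to each value the log2 ratio of SLC25A45 would be 1.44. SLC25A20, the carnitine and acylcarnitine carrier through which fatty acids reach the matrix, was at 21.6 and 18.4 FPKM (log2 ratio −0.23), within 1.5-fold. Of the partner enzymes of SLC25A20, CPT1A, CPT1C, CPT2 and CRAT had log2 ratios of −0.26, −0.17, 0.01 and −0.57, all within 1.5-fold.

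Most carriers of cofactors and nucleotides lay within 1.5-fold. Of 9 genes with values, 1 was lower by 1.5-fold and none was higher, beside 26.3% and 16.9% of all entries. Their median log2 ratio was −0.14, beside −0.12 over all entries. The lower one was SLC25A42, a coenzyme A carrier, at 36.7 FPKM in No-SCI and 23.4 after SCI (log2 ratio −0.65). It lay inside 1.5-fold after median centring and upper quartile scaling, and its No-SCI value has 7 digits. SLC25A51, which imports NAD, lay just inside the mark at 42.6 and 28.7 FPKM (log2 ratio −0.57). SLC25A52, the near copy of SLC25A51, was at 4.63 and 4.14 FPKM (log2 ratio −0.16). SLC25A16, a proposed coenzyme A carrier, was at 11.2 and 15.9 FPKM (log2 ratio 0.50) and passed 1.5-fold after both scalings. Its values have 7 digits in both groups. The remaining genes stayed between log2 ratios of −0.14 and 0.22. Among them are the pyrimidine nucleotide carriers SLC25A36, at 41.5 and 37.6 FPKM, and SLC25A33, at 7.37 and 8.57 FPKM, the peroxisomal carrier SLC25A17, at 40.1 and 37.1 FPKM, and SLC25A32, a carrier of folate and FAD, at 5.22 and 4.74 FPKM.

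Of the carriers related to the uncoupling proteins, SLC25A27 (also called UCP4), which is known from brain, had 14.7 FPKM in No-SCI and 8.76 after SCI, 1.67-fold lower (log2 ratio −0.74). SLC25A14 (UCP5) was at 14.2 and 16.1 FPKM (log2 ratio 0.17), and SLC25A30 at 3.80 and 3.67 FPKM (log2 ratio −0.05, above 0 after median centring and upper quartile scaling). SLC25A43, whose substrate is unsettled, had 12.5 and 6.65 FPKM, 1.88-fold lower (log2 ratio −0.91). SLC25A27 has 7 digits in its SCI value and SLC25A43 in its No-SCI value. SLC25A46, an outer membrane member that acts in mitochondrial fission and whose loss causes optic atrophy and neuropathy, was at 16.6 and 16.1 FPKM, a log2 ratio of −0.04 whose sign turned under all 3 scalings.

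Family members that carry other symbols were looked at beside these. UCP2, an uncoupling protein of immune cells and other tissues, had 74.7 FPKM in No-SCI and 197 after SCI, 2.64-fold higher (log2 ratio 1.40). UCP1, the uncoupling protein of brown fat, was near the floor of the table at 2.85 and 2.93 FPKM. The outer membrane homologues MTCH1 and MTCH2 were at 84.7 and 113 FPKM (log2 ratio 0.42) and at 61.6 and 60.5 FPKM (log2 ratio −0.03). Adding these 4 genes moved the median log2 ratio of the family from −0.11 to −0.09.

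**Figure D4:**
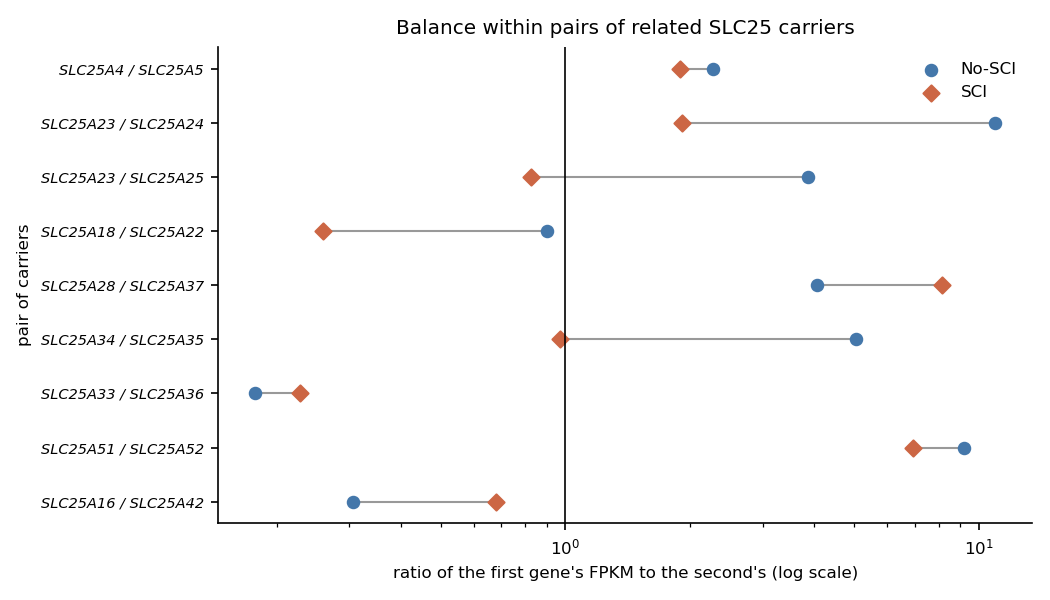
Ratio of the FPKM of the first carrier to that of the second (log axis) for 9 pairs of related SLC25 carriers in No-SCI (blue circles) and SCI (red diamonds), with 1 value per group. The ratios of SLC25A23 to SLC25A25 and of SLC25A34 to SLC25A35 cross 1, and that of SLC25A4 to SLC25A5 moves from 2.28 to 1.90.

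Genes that serve the carriers were read in the same way from listed pathways. Of 15 measured genes of the import pathway, which escorts carriers across the outer membrane and inserts them into the inner one, 14 had a log2 ratio above 0 and 5 were higher by at least 1.5-fold, with none lower and a median log2 ratio of 0.45. Over all entries 43.7% had a log2 ratio above 0, 16.9% were higher and 26.3% lower. Of the 5 higher genes, 2 have a value of 7 digits. TOMM70, the receptor that recognises carrier precursors, had 4.53 and 12.4 FPKM (log2 ratio 1.45), and TOMM40, the outer membrane channel, 15.1 and 37.1 FPKM, 2.46-fold higher. TIMM29 and AGK, subunits of the inner membrane translocase, had log2 ratios of 0.67 and 0.67, and the small chaperone TIMM13 had 0.64. TIMM22, the channel of that translocase, was at 27.0 and 29.0 FPKM (log2 ratio 0.10). By the mean of both groups the most abundant of the list were TIMM8B, at 810 and 950 FPKM, TIMM13, at 210 and 328 FPKM, and TOMM7, at 226 and 321 FPKM. The median of this list after median centring was 0.56, so the scaling widened its distance from 0.

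Pores and other transporters of the mitochondrion were split, with 3 genes higher and 2 lower by 1.5-fold among 14 (16.9% and 26.3% of all entries) and a median log2 ratio of −0.11. SFXN5, a sideroflexin of the inner membrane, had 444 FPKM in No-SCI and 120 after SCI, 3.69-fold lower (log2 ratio −1.88). MPC1, a subunit of the pyruvate carrier, had 499 and 308 FPKM (log2 ratio −0.70), whereas its partner MPC2 had 17.5 and 22.5 FPKM (log2 ratio 0.36). The calcium uniporter genes MCU, MICU2 and MCUB were higher, with log2 ratios of 1.02, 0.94 and 0.89. The outer membrane porins VDAC1, VDAC2 and VDAC3, through which metabolites reach the carriers, had log2 ratios of −0.19, −0.20 and −0.04. Enzymes of the malate-aspartate shuttle lay within 1.5-fold, with log2 ratios of 0.09 for MDH1, 0.17 for MDH2, −0.28 for GOT1 and 0.31 for GOT2.

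The ATP synthase and creatine kinases, which use the nucleotides and phosphate that the carriers move, had 2 genes higher and 3 lower by 1.5-fold among 15 (16.9% and 26.3% of all entries), with a median log2 ratio of 0.23. The higher ones were ATP5MC1 (log2 ratio 0.67) and ATP5PF (log2 ratio 0.59), and ATP5MC3, among the most abundant, had 1701 and 2120 FPKM (log2 ratio 0.32). The lower ones were the creatine kinases CKM, at 31.6 and 3.07 FPKM, CKMT1, at 43.8 and 25.9 FPKM, and CKB, at 1783 and 1071 FPKM. CKM is also 1 of the skeletal muscle markers.

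The SLC25 genes were also set beside larger groups of mitochondrial genes and of genes with other SLC symbols. The last group was taken by symbol alone, so it holds entries such as SLC4A1AP and SLC9A3R2. The shares over all entries were 43.7% above 0, 16.9% higher and 26.3% lower by 1.5-fold. Of 87 respiratory chain and ATP synthase genes, 71.3% had a log2 ratio above 0, 9 (10.3%) were higher and 6 (6.90%) lower by 1.5-fold, and the median log2 ratio was 0.22. Of 75 mitochondrial ribosomal protein genes, 72% had a log2 ratio above 0, 12 (16%) were higher and 2 (2.67%) lower, and the median was 0.29. Of 170 genes with other SLC symbols, 30% had a log2 ratio above 0, 21 (12.4%) were higher and 65 (38.2%) lower, and the median was −0.36. The SLC25 median of −0.11 lay between them. These differences were not tested, since genes are not replicates and each group has 1 value per gene.

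**Figure D5:**
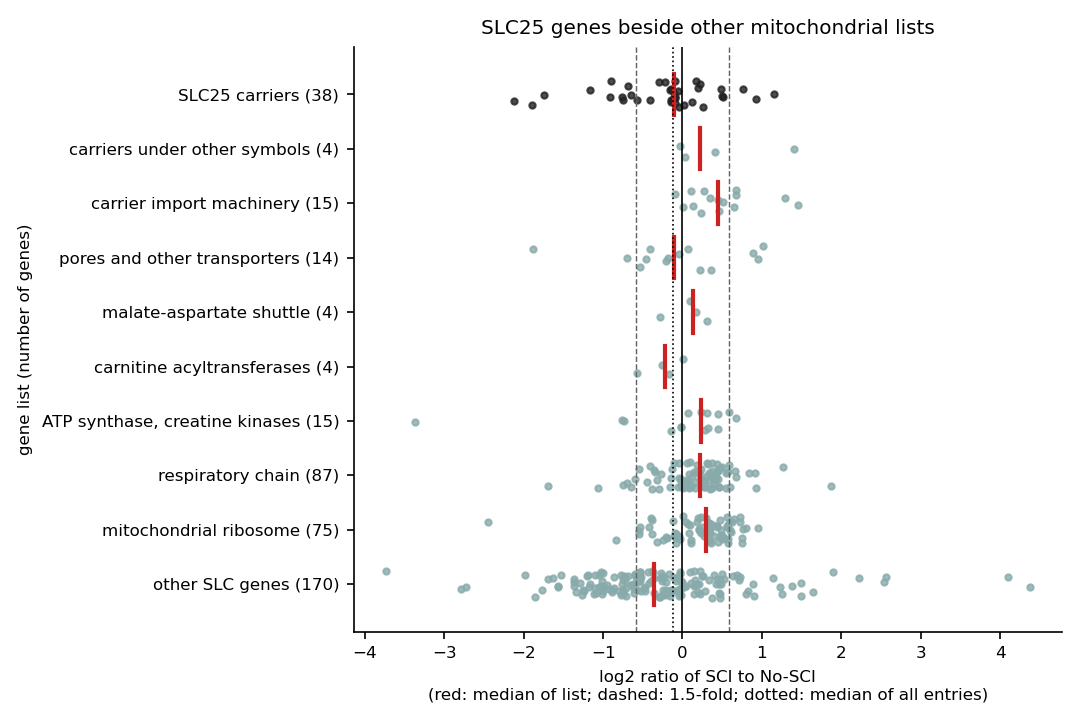
Log2 ratio of SCI over No-SCI of each gene (points) in the SLC25 family and in 9 other lists, with the number of genes in brackets, the list median in red, 1.5-fold dashed and the median of all entries dotted; the vertical spread of points within a list is for legibility alone. Import, respiratory chain and ribosome lists have medians above 0, and the SLC25 median of −0.11 lies on the line of all entries.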

How the data were processed

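RNA from the supernatant of digested spinal cord of No-SCI and SCI rats had its ribosomal RNA removed and was sequenced from stranded libraries by the authors. Per the labels and the study's methods, reads were downsampled to the smallest library, aligned to rn6 with STAR 2.5.4b and summarised with Cuffdiff 1.3.0 with normalization to the upper quartile. The FPKM deposited by the authors are 1 value per group, read by the group named in the table, and 0 columns of values were left without a group. The table also holds the authors' fold changes, p-values and q-values, which were not used. No counts or values per library were analysed here, so neither the reads behind a gene's value nor its error can be given, and the libraries were brought to equal depth by the downsampling.

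Log2 ratios (SCI over No-SCI) were taken with no pseudocount, and ranks, shares and medians followed. All SLC25 genes enter the counts and medians, and they are named except 1, which is not reported here. From the other lists, genes past 1.5-fold, the most abundant genes and the partner enzymes may be named, and the porins, MPC2, TIMM22 and the uncoupling proteins were named after their values were seen. The members and lists were chosen with earlier results of these data known. Pathway and marker lists hold 60 and 106 genes. Alternatives included centring on the median of all entries, an equal total or upper quartile, pseudocounts of 1 and 0.1, other fold minimums, a mean of at least 5 FPKM and list means. Subtracting 1 from every value and leaving out genes with values of 7 digits were added after the values were seen. Genes were matched to RefSeq (GRCr8) by symbol, using the first window listed per gene for promoters. The ratio and count steps were tested on simulated data. Python 3.11.15, numpy 2.4.6, pandas 2.3.3 and matplotlib 3.10.9 were used.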

Additional observations from a re-analysis of the deposited data

How the results depend on the processing

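Adding a pseudocount of 1 or 0.1 or subtracting 1 from every value changed the sign of 0 SLC25 genes. Median centring changed 8 signs and upper quartile scaling 6, all of genes within 1.5-fold, and scaling to the same total changed 1. After median centring 20 genes were above 0, 6 were higher by 1.5-fold, and the median log2 ratios were 0.0087 for the family, −0.64 for the amino acid carriers and 0.56 for the import genes. With the same upper quartile 6 were higher, and the medians were −0.0055, −0.66 and 0.55. With the same total they were −0.063, −0.71 and 0.49, and with a pseudocount of 1 they were −0.10, −0.68 and 0.44. The amino acid median was −0.75 with a pseudocount of 0.1 and −0.92 after subtracting 1, an alternative chosen after seeing the data. At 1.3-fold 6 genes were higher. At 2-fold 1 gene was higher and 4 lower, 2 of them amino acid carriers. The family median was −0.10 with a mean of at least 5 FPKM and −0.094 with the homologues added, and the mean was −0.24. Leaving out the genes with values of 7 digits, also chosen after seeing the data, left 5 genes above 0, 0 higher and 1 lower among 18, with a median of −0.10. The cause of these shifts was not tested. No paired analysis was possible because the table holds 1 value per group and the groups share no replicate numbers, and for the same reason no library could be left out. The reads behind each gene's value were not analysed here, so no floor or interval is given for low genes.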
